A study of Mus musculus with 12 samples.

Results

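Deletion of p53 in the intestinal epithelium was examined in colonic crypts that carry unmutated CBP, across all genes. The comparison set 3 CBPWTp53ΔIEC mice against 3 CBPWTp53-floxed mice, which together gave 6 of the 12 RNA-seq libraries of the series, with 1 library per mouse. Both groups were C57BL/6 mice with wild-type CBP and floxed Trp53 alleles, and the study's methods describe females of 8 weeks unless stated otherwise. In CBPWTp53ΔIEC mice the floxed alleles were deleted by Cre under the Villin promoter, which is active in epithelial cells of the small intestine and colon, whereas CBPWTp53-floxed mice kept both alleles and carried no Cre. The ΔIEC mice came from a separate cross, so the deletion, the presence of Cre and the cross cannot be told apart. The other 6 libraries came from CBPAAp53-floxed and CBPAAp53ΔIEC mice, in which a pair of serines of CBP, phosphorylated by IKKα, is replaced with alanines, and they also entered the fit, which estimated the variation between mice from all 12 libraries.

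The transcription factor p53 is kept at low levels by the ubiquitin ligase MDM2 and accumulates after DNA damage, oncogene activity or nucleolar stress. It binds paired half-sites in DNA and activates genes for cell cycle arrest, DNA repair, apoptosis and metabolism. One of its targets, Cdkn1a (p21), inhibits cyclin-dependent kinases and so keeps the E2F factors and the DREAM complex in their repressive state on genes for replication and mitosis. CBP acetylates histones and p53 and serves p53 as a coactivator.

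Reads counted on genes numbered 11177430, 16935388 and 17691581 in CBPWTp53-floxed replicates 1, 2 and 3, and 11701629, 15430789 and 13975591 in CBPWTp53ΔIEC replicates 1, 2 and 3. Of 55471 genes listed, 14610 had enough reads to be tested. Pearson's r of log2 CPM (reads scaled to library size) across genes lay between 0.990 and 0.992 among the CBPWTp53-floxed libraries and was 0.990 between CBPWTp53ΔIEC replicates 2 and 3, but CBPWTp53ΔIEC replicate 1 correlated with these at only 0.953 and 0.952. Levels below are given as TPM, a transcript abundance scaled to gene length and library size.

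Genes of the small intestine were high in the library of CBPWTp53ΔIEC replicate 1. Lyz1, the lysozyme of Paneth cells, reached 2281 TPM there against 7.93 and 0 in replicates 2 and 3 and 0.361, 0 and 0 in the CBPWTp53-floxed libraries. The Paneth cell defensin Defa24 was at 8290 TPM in replicate 1, at 21.1 and 0.466 in replicates 2 and 3, and was listed at 0 in all CBPWTp53-floxed libraries. A list of 18 Paneth cell genes, led by Defa24, summed to 23632 TPM in this library and to between 330 and 690 TPM in the other 5. Likewise 25 genes of small-intestinal enterocytes and their regional factors, led by Reg3b, summed to 17717 TPM against 1971 to 3246 TPM, with the bile acid carrier Fabp6 at 1629 TPM (4.78 to 17.8 in the others) and the apolipoprotein Apoa1 at 1704 TPM (0.316 to 3.88 in the others). Hoxb13, a homeobox gene of the distal gut, was at 74.5 TPM in replicate 1 and between 140 and 180 TPM in the other 5 libraries. Antigen presentation genes were high in the same library, with 415 TPM of Cd74, the invariant chain, against 4.18 to 26.7 TPM. Xist, transcribed from the inactive X chromosome of females, was at 65.9 TPM in this library and at 132 to 168 TPM in the other 5. Among the CBPAA libraries of the fit, Xist was at 0.683 TPM in CBPAAp53-floxed replicate 1, against 67.1 to 155 TPM in the other 5. A list of 5 X and Y chromosome sex markers, Xist included, also summed to 0.683 TPM there, so its other members added none. Genes of the small intestine were also held by 3 CBPAA libraries. The Paneth and enterocyte lists summed to 6153 and 8416 TPM in CBPAAp53ΔIEC replicate 3, 3149 and 4870 TPM in CBPAAp53ΔIEC replicate 1, and 1728 and 5504 TPM in CBPAAp53-floxed replicate 2. The part of this library's makeup in single results was not tested, and list counts that changed when it was left out are given both ways.

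All 6 libraries carried the crypt epithelium. The sum of 20 epithelial genes lay between 23480 and 27273 TPM, and Lgals4, a lectin of the gut epithelium, was at 5461, 5213 and 5702 TPM in CBPWTp53-floxed and 5090, 4114 and 3946 TPM in CBPWTp53ΔIEC crypts. Other cell types were rare. Of 20 stromal genes 14 had at most 10 reads in every library, the list summed to between 6.02 and 11.9 TPM, and its defining collagen Col1a1 did not exceed 0.149 TPM. Pecam1 of endothelial cells lay between 0.613 and 1.05 TPM and Ptprc (CD45) of leukocytes between 0.596 and 1.19 TPM. In such bulk RNA, a change in the number of cells of a type and a change in RNA per cell cannot be told apart.

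Trp53 itself (ENSMUSG00000059552, chromosome 11 of GRCm38, 69580359 to 69591873, plus strand) was read first. Its level was 24.6, 28.6 and 30.4 TPM in the CBPWTp53-floxed libraries and 5.44, 3.26 and 4.15 TPM in the CBPWTp53ΔIEC libraries. The groups did not overlap, and each of the 6 libraries had the Trp53 level that its label gives. The log2 fold change was −2.64 ± 0.22 (SE), a 6.23-fold lower level, with an adjusted p of 3.75e-04 (edgeR quasi-likelihood test, Benjamini-Hochberg over all genes tested), the smallest of the comparison. The processed pseudogene Trp53-ps on chromosome 17, whose reads may derive from Trp53, had 8, 15 and 21 reads in CBPWTp53-floxed and 0, 2 and 0 in CBPWTp53ΔIEC libraries. Crebbp, which encodes CBP, was at 9.54 ± 1.73 TPM (SD, n = 3) in CBPWTp53-floxed and 7.75 ± 1.86 TPM (SD, n = 3) in CBPWTp53ΔIEC crypts, and its log2 fold change of −0.28 ± 0.13 (SE) did not pass the test (adjusted p = 0.237).

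Genes were called at an adjusted p under 0.05 with a log2 fold change above 0.5 in size. By this rule 460 genes, or 3.15% of those tested, were called in CBPWTp53ΔIEC vs. CBPWTp53-floxed crypts. Of these 335 (2.29% of genes tested) rose and 125 (0.856%) fell. The TMM-normalised CPM of all 460 did not overlap between the 3 and 3 libraries, which held for 30.8% of all genes tested. The median log2 fold change of all genes was 0.01. An unadjusted p under 0.05 was found for 3053 genes (20.9%), the background for the lists below. DESeq2 on all 12 libraries called 603 of 14509 genes higher and 255 lower, the background for its counts below. The calls sat close to the threshold: 440 of the 460 had an adjusted p above 0.02. Leaving out CBPWTp53ΔIEC replicate 1 raised the count to 906 genes (6.06% of 14953 tested), of which 415 were among the 460, whereas leaving out any other library of the 2 groups lowered it to between 1 and 7 genes. Without CBPAAp53-floxed replicate 1 the count was 352. All 460 kept their sign in every fit without 1 of the 12 libraries, but Trp53 alone stayed called in each of these fits.

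**Figure D1:**
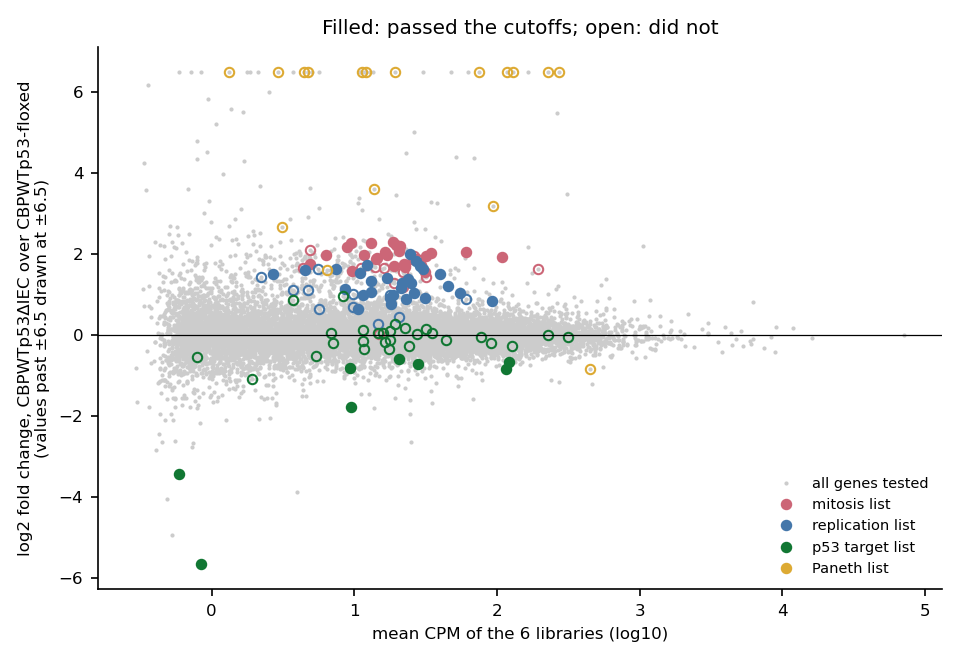
Log2 fold change of each of the 14610 genes tested, CBPWTp53ΔIEC over CBPWTp53-floxed, against the mean CPM of the 6 libraries on a log10 axis, with genes of 4 lists in colour (filled where called, open where not). Mitosis and replication genes form a band above 0 at middling levels, the called p53 targets lie below 0, and most Paneth genes lie open at the top edge, where values past 6.5 are drawn at 6.5.

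Among 40 direct targets that p53 activates, 36 had enough reads, 8 fell and none rose, against 0.856% and 2.29% of all genes tested. Their median log2 fold change was −0.16. DESeq2 called 8 lower and 1 higher, against 255 and 603 of 14509 genes. Without CBPWTp53ΔIEC replicate 1, 9 were lower, against 259 of all 14953 genes tested in that fit, and the median was −0.26. Without any other library of the 2 groups 0 to 2 were called. The largest fall of the whole comparison was Eda2r, the ectodysplasin A2 receptor of the TNF receptor family, with 18, 23 and 36 reads in CBPWTp53-floxed and 0, 1 and 0 reads in CBPWTp53ΔIEC libraries. This is a pooled ratio of 69.2, with a counting interval of 12.1 to 2768 (95%, exact binomial, counting error only). Phlda3, which restrains AKT at the membrane, had 7, 23 and 23 reads against 0, 2 and 2, a pooled ratio of 11.9 (interval 4.39 to 45.3). At both genes almost no transcript was left in any of the 3 CBPWTp53ΔIEC libraries.

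Ephx1, the microsomal epoxide hydrolase, was at 19.7 ± 0.30 TPM (SD, n = 3) in CBPWTp53-floxed and at 3.66, 5.82 and 7.51 TPM in CBPWTp53ΔIEC crypts. Its fall by 1.79 ± 0.22 (SE) on the log2 scale had an adjusted p of 0.00896. Ccng1, encoding cyclin G1, fell less, from 113, 110 and 111 TPM to 55.5, 80.2 and 69.5 TPM (log2 fold change −0.67 ± 0.13 (SE), adjusted p = 0.0256). The other falls were in Trp53inp1, a factor of p53-dependent cell death and autophagy (−0.86), Rrm2b, the p53-induced ribonucleotide reductase subunit (−0.82), the polo-like kinase Plk2 (−0.71) and Dglucy, a D-glutamate cyclase (−0.59). The levels of these 6 genes, Ephx1 and Ccng1 included, did not overlap between the groups, and each stayed called without CBPWTp53ΔIEC replicate 1.

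The best known targets were not among them. Cdkn1a was at 169 ± 12.4 TPM in CBPWTp53-floxed and 160 ± 29.0 TPM (SD, n = 3) in CBPWTp53ΔIEC crypts, with CBPWTp53ΔIEC replicate 1 the highest of all 6 libraries and CBPWTp53ΔIEC replicate 2 the lowest, and its log2 fold change was −0.02 ± 0.20 (SE, adjusted p = 0.974). Mdm2 was at 22.7, 23.5 and 24.6 TPM against 14.9, 21.1 and 28.4 TPM (−0.13 ± 0.12, adjusted p = 0.544), and Bax, a mitochondrial effector of apoptosis, at 18.4 ± 2.14 against 19.4 ± 1.88 TPM (SD, n = 3). For these 3 genes the groups overlapped.

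**Figure D2:**
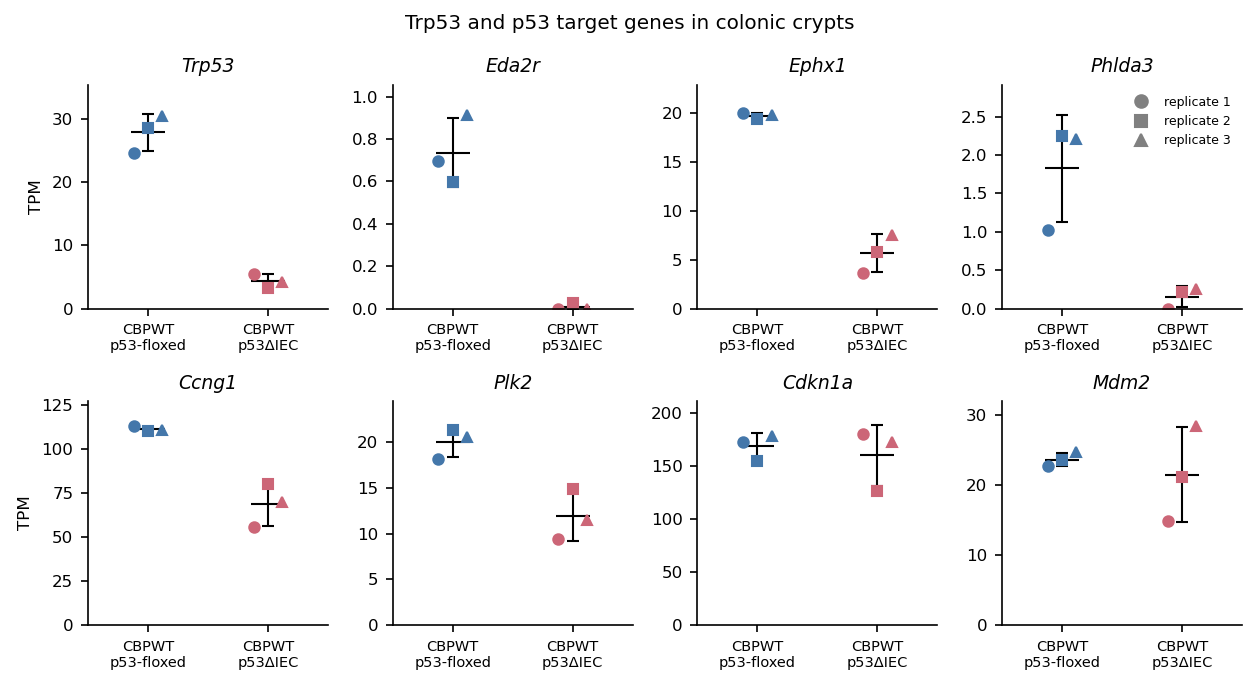
TPM (linear axes from 0) of Trp53 and 7 p53 target genes in each library, with the mean and SD of the 3 mice per group and 1 symbol per replicate number. The groups separate for Trp53, Eda2r, Ephx1, Phlda3, Ccng1 and Plk2 and overlap for Cdkn1a and Mdm2.

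Some of the largest falls outside the list lay in unnamed or noncoding transcripts. Gm37795, a transcript whose exons overlap Mir34a on the same strand (chromosome 4, 150068539 to 150070997), fell by 2.09 on the log2 scale, from 2.19 ± 0.399 TPM (SD, n = 3) to 0.161, 0.543 and 0.794 TPM. Mir34a is a microRNA that p53 activates. The long noncoding RNA Pvt1, which neighbours Myc, fell from 0.457, 0.415 and 0.514 TPM to 0.113, 0.119 and 0.167 TPM (log2 fold change −1.75, adjusted p = 0.0266). St8sia5, a sialyltransferase of gangliosides, fell by 2.07 on the log2 scale. Or2l13, Gm11830 and Gm13270, also among the 12 largest falls of called genes, were at the edge of detection, with pooled ratios of 6.29 (counting interval 2.66 to 18.1), 7.86 (2.81 to 30.5) and 3.59 (1.93 to 7.20). Gm11830 was not called without CBPWTp53ΔIEC replicate 1 (log2 fold change −2.85 with and −2.45 without).

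Many genes of cell division rose. Of 40 genes of mitosis, kinetochore and cytokinesis, all of which were tested, 26 rose and none fell, against 2.29% and 0.856% of all genes. Their median log2 fold change was 1.87, and 39 of the 40 did not overlap between the groups, against 30.8% of all genes. Without CBPWTp53ΔIEC replicate 1, 36 of the 40 rose, against 6.06% of all genes called in either direction in that fit, and the median was 2.13. Some settings gave fewer calls. Without any other library of the 2 groups none of the 40 was called, and with no filter on low counts 1 was. DESeq2 called 36 higher and none lower, against 603 and 255 of 14509 genes. All genes called in the comparison kept their sign without any 1 library. The list's mean level relative to CBPWTp53-floxed was 0.98 in replicate 1 and 2.13 and 1.98 in replicates 2 and 3 (log2), so replicate 1 lay between the groups.

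Aurkb, the kinase of the chromosomal passenger complex, was at 7.05, 8.19 and 6.00 TPM in CBPWTp53-floxed and 14.1, 33.8 and 41.9 TPM in CBPWTp53ΔIEC crypts (log2 fold change 2.06 ± 0.41 (SE), adjusted p = 0.0332). Its partner Birc5 (survivin) rose from 5.43, 6.64 and 5.19 TPM to 14.0, 32.6 and 32.8 TPM (log2 fold change 2.19). Cdk1, the kinase that drives entry into mitosis, rose from 5.59, 5.72 and 4.95 TPM to 10.4, 22.6 and 21.7 TPM (1.75 ± 0.32, adjusted p = 0.0256). In each case replicate 1 was the lowest CBPWTp53ΔIEC library and still above every CBPWTp53-floxed library. The polo-like kinase Plk1 rose by 2.30, the spindle protein Nusap1 by 2.23, the microtubule depolymerase Kif2c by 2.26, the phosphatase Cdc25c by 1.75, the checkpoint protein Mad2l1 by 1.68 and the kinetochore protein Spc25 by 1.56 on the log2 scale. Mki67, the proliferation marker, was at 23.8, 27.4 and 22.3 TPM against 30.6, 107 and 95.5 TPM, and did not pass the test (log2 fold change 1.64 ± 0.49 (SE), adjusted p = 0.0966), but was called without replicate 1.

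Promoters of genes that the DREAM complex and MuvB bind often hold a CHR element next to CCAAT boxes, and those of replication genes an E2F site. RefSeq promoters of GRCm38.p6, 250 bases before to 50 after the gene start, were found for 10528 of the genes tested, with the first listed start used per gene. Both strands were searched for the CHR letters TTTGAA or TTCGAA, for CCAAT, and for the E2F letters TTTGGCGC, TTTCCCGC, TTTCGCGC or TTTGCCGC. A CHR stood in 27 of 34 promoters of the mitosis list (79.4%), in 7 of 33 of the replication list (21.2%) and in 14.2% of all promoters. CCAAT stood in 73.5% of the mitosis, 60.6% of the replication and 39.0% of all promoters, and CHR and CCAAT together in 23 of the 34 mitosis promoters (67.6%) against 6.02% of all. An E2F site stood in 12 of 33 replication promoters (36.4%), in 1 of 34 mitosis promoters and in 4.05% of all promoters. For comparison, the hexamers TTAGAA and TTGCAA stood in 4 of 34 mitosis promoters and in 13.1% of all. These shares describe the letters only, and hexamers also occur by chance. The 100 bases before the start of 4 called mitosis genes are shown because CHR and CCAAT, in capitals, both lie in that stretch.
Ube2c (chr2:164769829-164769928, plus strand): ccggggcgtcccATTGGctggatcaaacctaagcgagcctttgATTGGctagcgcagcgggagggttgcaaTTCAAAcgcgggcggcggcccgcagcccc
Cdc20 (chr4:118437344-118437443, minus strand): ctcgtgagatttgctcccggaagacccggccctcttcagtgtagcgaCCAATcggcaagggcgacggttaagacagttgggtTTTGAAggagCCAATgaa
Kif11 (chr19:37376282-37376381, plus strand): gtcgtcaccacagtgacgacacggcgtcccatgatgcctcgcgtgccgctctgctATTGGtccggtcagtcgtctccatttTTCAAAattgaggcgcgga
Cdk1 (chr10:69352913-69353012, minus strand): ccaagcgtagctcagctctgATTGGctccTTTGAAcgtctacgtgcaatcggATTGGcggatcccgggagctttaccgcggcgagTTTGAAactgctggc
The CHR begins 29, 18 and 19 bases before the start in Ube2c, Cdc20 and Kif11, and 71 and 15 bases before it in Cdk1, with a CCAAT box upstream of at least 1 CHR in each. Ube2c, a ubiquitin-conjugating enzyme of the anaphase-promoting complex, rose by 1.95 on the log2 scale, its activator Cdc20 by 1.72 and the spindle motor Kif11 by 2.02. Exons of Ube2c and Cdc20 overlap Tnnc2 and Elovl1 on the other strand, so their reads are less certain.

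DNA replication genes rose alongside. Of 40 genes of replication and nucleotide supply, 29 rose and none fell, against 2.29% and 0.856% of all genes. Their median log2 fold change was 1.13, and 38 did not overlap between the groups, against 30.8% of all genes. Without CBPWTp53ΔIEC replicate 1, 36 rose (6.06% of all genes were called in that fit) and the median was 1.28. Without any other library of the 2 groups 0 or 1 was called, and 20 were with no filter on low counts. DESeq2 called 36 higher and none lower, against 603 and 255 of 14509 genes. Rrm2, the S-phase subunit of ribonucleotide reductase, was at 14.3, 8.27 and 11.0 TPM in CBPWTp53-floxed and 25.8, 39.5 and 53.7 TPM in CBPWTp53ΔIEC crypts (log2 fold change 1.83 ± 0.27 (SE), adjusted p = 0.0170). Cdt1, which loads the replicative helicase onto origins, rose from 12.6, 13.1 and 14.9 TPM to 18.8, 23.3 and 31.6 TPM (0.87 ± 0.12, adjusted p = 0.0126). For both genes every deleted mouse lay above every floxed one. The helicase subunit Mcm6 rose from 13.5, 14.9 and 17.9 TPM to 24.9, 37.4 and 44.1 TPM (log2 fold change 1.21), Mcm5 by 1.62, Mcm7 by 1.04 and the initiation factor Mcm10 by 1.32. The flap endonuclease Fen1 and the ligase Lig1 each rose by 1.27, the single-strand binding protein Rpa2 by 1.05 and the thymidine kinase Tk1 by 1.99. The sliding clamp Pcna rose from 70.8, 77.6 and 67.9 TPM to 95.5, 142 and 146 TPM (0.84), and its pseudogene Pcna-ps2, which may share its reads, by 2.48. The promoters of 2 called helicase subunits are shown for their E2F letters, in capitals. In each, 2 of the sites overlap on opposite strands near the beginning of the stretch.
Mcm6 (chr1:128359706-128359825, minus strand): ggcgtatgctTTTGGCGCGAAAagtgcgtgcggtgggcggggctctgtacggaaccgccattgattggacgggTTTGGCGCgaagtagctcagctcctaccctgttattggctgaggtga
Mcm5 (chr8:75109349-75109508, plus strand): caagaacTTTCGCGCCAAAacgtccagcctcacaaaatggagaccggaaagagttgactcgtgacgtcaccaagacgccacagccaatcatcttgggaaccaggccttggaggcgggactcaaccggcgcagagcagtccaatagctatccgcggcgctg
The E2F letters begin 110, 106 and 47 bases before the start of Mcm6 and 153 and 149 bases before that of Mcm5.

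The p53 response element (2 half-sites of 10 bases, up to 13 bases apart) was found in only 3 of the 10528 promoters (0.0285%) and in 1 of 29 promoters of the p53 target list. That 1 was Cdkn1a, shown here with the element in capitals because its transcript did not follow Trp53.
Cdkn1a (chr17:29090879-29090978, plus strand): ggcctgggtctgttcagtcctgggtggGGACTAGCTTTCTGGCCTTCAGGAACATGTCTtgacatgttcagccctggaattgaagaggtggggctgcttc
Elements farther from the start or in introns lie outside this window.

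Genes of DNA repair were called in part. Of 29 genes of DNA repair and checkpoints, 12 rose and none fell, against 2.29% and 0.856% of all genes, with a median log2 fold change of 1.12. The count was 21 without CBPWTp53ΔIEC replicate 1, and 6 with no filter on low counts. DESeq2 called 17 higher and none lower, against 603 and 255 of 14509 genes. Brca1 of homologous recombination rose by 1.98, Rad54l of the same pathway from 1.18 ± 0.311 to 5.08 ± 2.61 TPM (SD, n = 3), Fancb of the Fanconi pathway by 1.93 and the fork protection factor Timeless by 1.41. Brca1 was at 1.04, 1.45 and 0.948 TPM in CBPWTp53-floxed and 2.16, 5.70 and 5.95 TPM in CBPWTp53ΔIEC crypts. The checkpoint kinase Chek1, counted among 14 regulators of p53, rose by 1.35. Chek1 and Trp53, the deleted gene, were the only calls in that list, against 3.15% of all genes called. Of the 14, 3 had a positive log2 fold change, and the median was −0.13. Without CBPWTp53ΔIEC replicate 1, 2 were called higher and 1 lower, against 6.06% of all genes called. Among 31 cell cycle entry factors and MYC network genes 5 rose and none fell (11 and 1 without CBPWTp53ΔIEC replicate 1), against 2.29% and 0.856% of all genes (6.06% called without that library), 20 had a positive log2 fold change and the median was 0.17. The 5 included Ccne1, which encodes cyclin E1 (from 1.97, 2.29 and 1.91 TPM to 4.25, 5.83 and 12.0 TPM), E2f2 (1.34), E2f7 (1.89) and Mybl2 (1.45). Of 7 inhibitors of cyclin-dependent kinases, Cdkn2c (p18) and Cdkn3, a phosphatase of Cdk1 and Cdk2, rose by 1.28 and 2.03 and none fell, against the same shares. Among 10 histone genes tested of 25, which oligo(dT) selection captures poorly, edgeR called none, DESeq2 called 3 and 7 had an unadjusted p under 0.05, and edgeR called 3 without CBPWTp53ΔIEC replicate 1. The most abundant, H1f2, was at 193, 212 and 178 TPM against 202, 315 and 320 TPM. The linker histone H1f0, whose transcript is polyadenylated, rose from 350 ± 10.8 to 614 ± 92.7 TPM (SD, n = 3; log2 fold change 0.84 ± 0.15 (SE), adjusted p = 0.0248).

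Among the 12 largest rises of called genes were 3 further genes known from cell division. Pbk, a mitotic kinase, rose from 8.03, 7.67 and 7.27 TPM to 19.7, 56.5 and 53.6 TPM, Cenpw of the kinetochore from 0.372 ± 0.0859 to 2.08 ± 0.661 TPM (SD, n = 3), and Aunip, which binds Aurora A, by 2.57 on the log2 scale. Mns1, a protein of sperm flagella and cilia, rose by 2.52. The transcripts 3100003L05Rik, 2810408I11Rik and Gm17634, without a known role here, rose by 3.30, 2.68 and 2.67.

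**Figure D3:**
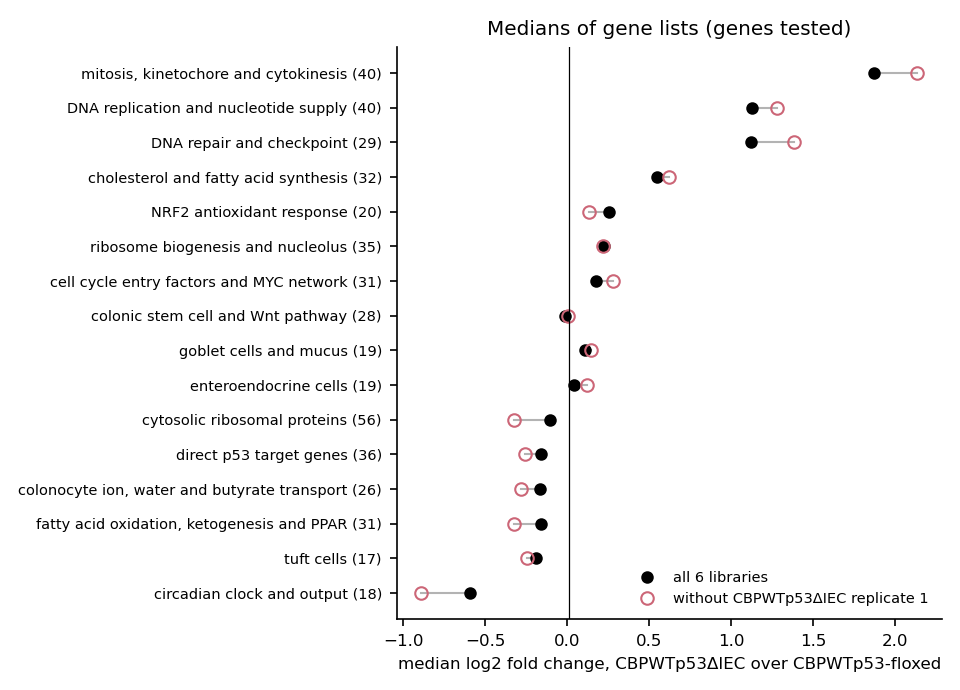
Median log2 fold change of 16 gene lists, CBPWTp53ΔIEC over CBPWTp53-floxed, from all 6 libraries (black) and without CBPWTp53ΔIEC replicate 1 (open red), with the number of genes tested in brackets and a line at the median of all genes. Mitosis, replication and repair lists lie above 1, the clock list lies lowest, and the medians of these 4 lists lie farther from 0 without replicate 1.

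A pair of clock genes was called. Of 18 genes of the circadian clock and its output, Per2, a repressor of the clock, fell and Bmal1, its activator, rose, against 3.15% of all genes called, and the median was −0.59. Without CBPWTp53ΔIEC replicate 1, 4 were higher and 5 lower, against 6.06% of all genes called in that fit, and the median was −0.89. DESeq2 called 4 higher and 3 lower, against 603 and 255 of 14509 genes. Per2 was at 9.74, 9.83 and 10.8 TPM in CBPWTp53-floxed and 3.73, 4.39 and 5.57 TPM in CBPWTp53ΔIEC crypts (log2 fold change −1.12 ± 0.19 (SE), adjusted p = 0.0234), and Bmal1 at 4.99 ± 0.593 against 11.7 ± 4.89 TPM (SD, n = 3), with 6.09 TPM in replicate 1. Dbp, a strongly cycling output gene, was at 16.7, 17.9 and 20.5 TPM against 10.4, 1.73 and 2.28 TPM (−1.80 ± 0.80, adjusted p = 0.244; called without replicate 1, at −3.29). Relative to CBPWTp53-floxed, the mean level of the clock list was −0.23 in CBPWTp53ΔIEC replicate 1 and −1.05 and −0.75 in replicates 2 and 3 (log2). In CBPAAp53ΔIEC replicates 1, 2 and 3 it was −0.71, −0.72 and −0.01, and there the mitosis list was at 1.82, 1.79 and 0.23 (log2). The 2 ΔIEC libraries whose clock list was nearest to the floxed mice were also the 2 with the lowest mitosis list. They were as well the 2 with the highest small-intestinal list of all 12 libraries, at 3.60 and 2.73 (log2), and the highest Paneth list, at 7.83 and 5.82. CBPAAp53ΔIEC replicate 1 did not follow this order, with 1.22 and 4.96 for these lists beside the high mitosis level of 1.82. The mice were sacrificed between late morning and mid-afternoon, and the hour of each mouse was not given in the sources used here. Each library name also carries a number, whose meaning is not given in the sources used here. CBPWTp53ΔIEC replicate 1 and CBPAAp53ΔIEC replicate 3 have the lowest of these numbers among all 12 libraries. The other ΔIEC libraries, CBPAAp53ΔIEC replicate 1 included, have the highest, which lie close together. The split of the ΔIEC libraries by mitosis and clock level thus also follows the numbering. The part of time of day, of small-intestinal RNA or of whatever the numbers stand for in the cell cycle result was not tested.

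**Figure D4:**
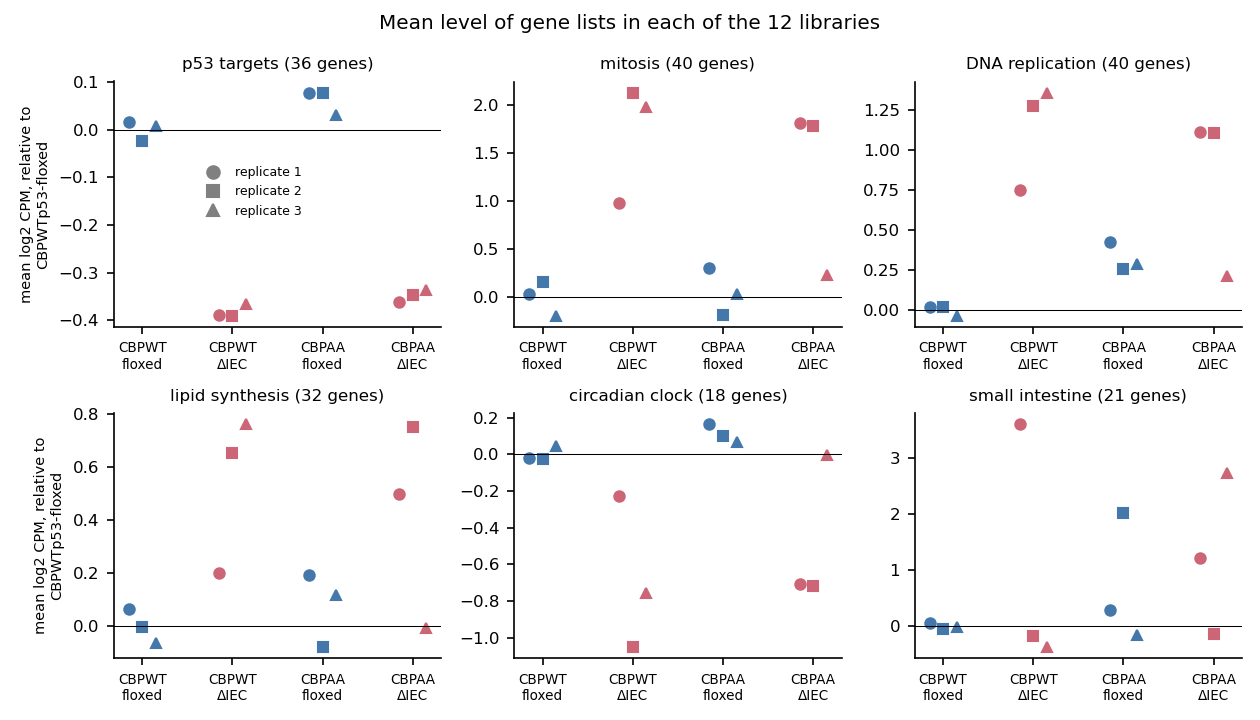
Mean log2 CPM of 6 gene lists in each of the 12 libraries, relative to the mean of CBPWTp53-floxed (line at 0), with floxed libraries in blue, ΔIEC libraries in red and 1 symbol per replicate number. The p53 target panel, a mean that includes genes with almost no reads left, lies between −0.39 and −0.37 in the CBPWTp53ΔIEC libraries. The mitosis, replication, lipid synthesis and clock lists bring CBPWTp53ΔIEC replicate 1 and CBPAAp53ΔIEC replicate 3 toward the floxed level, and the small intestine list is highest in these same 2 libraries.

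Lipid synthesis rose in part. Of 32 genes of cholesterol and fatty acid synthesis 5 rose and none fell, against 2.29% and 0.856% of all genes, with a median log2 fold change of 0.55. Without CBPWTp53ΔIEC replicate 1, 16 rose, against 6.06% of all genes called in that fit. Among them were Fdps, the farnesyl diphosphate synthase (from 2.49, 2.29 and 2.49 TPM to 4.38, 5.99 and 7.75 TPM, log2 fold change 1.33), the squalene epoxidase Sqle (0.82), Nsdhl of a later sterol step (0.81) and Pmvk of the mevalonate pathway (0.64). Scd1, the fatty acid desaturase, was at 13.7, 14.1 and 11.3 TPM against 13, 53 and 60 TPM (1.65 ± 0.51, adjusted p = 0.107), and was called without CBPWTp53ΔIEC replicate 1 (log2 fold change 2.02, adjusted p = 0.026) and by DESeq2 (1.63, adjusted p = 0.0262). The CBPWTp53ΔIEC list level was 0.20 in replicate 1 and 0.65 and 0.76 in replicates 2 and 3 (log2), so replicate 1 was again nearest to the floxed mice. Of 31 genes of fatty acid oxidation and ketogenesis 1 was called (3.23%), near the 3.15% of all genes. This was the lipid sensor Ppara, with 19.6, 21.3 and 21.9 TPM against 8.17, 13.5 and 12.0 TPM. It was no longer called without CBPWTp53ΔIEC replicate 1 (log2 fold change −0.88 with and −0.81 without).

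A few antioxidant genes rose. Of 20 genes of the NRF2 antioxidant response 5 rose and none fell, against 2.29% and 0.856% of all genes. The median was 0.26. Without CBPWTp53ΔIEC replicate 1 it was 0.13 and 3 rose, against 6.06% of all genes called in that fit. The 5 were glutathione reductase Gsr (from 52.5, 65.7 and 60.0 TPM to 83.7, 83.0 and 105 TPM, log2 fold change 0.64 ± 0.11 (SE), adjusted p = 0.0225), G6pdx, Taldo1 and Tkt of the pentose phosphate pathway (0.55, 0.68 and 0.55) and the peroxiredoxin Prdx1 (0.54). Here replicate 1 was as high as replicate 2 for Gsr. G6pdx and Tkt fell short of the fold cutoff without that library, at 0.47 and 0.49. Of 31 conjugation enzymes Ugt2b36 (0.72) and Gstp1 (0.64) rose and none fell, against 2.29% of all genes higher. Without CBPWTp53ΔIEC replicate 1, 3 rose, against the 6.06% of all genes called.

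Cyp4f15, a fatty acid hydroxylase of the cytochrome P450 family, had 3, 1 and 3 reads in CBPWTp53-floxed and 29, 36 and 68 reads in CBPWTp53ΔIEC libraries. The pooled ratio was 21.1 with a counting interval of 9.98 to 53.6, and the adjusted p was 0.00896. Among 26 genes of that family, beside 3.15% of all genes called, it was the only rise, and Cyp2c68 (from 107, 121 and 114 TPM to 53.8, 61.0 and 43.3 TPM) and Cyp2d10 (from 72.9 ± 9.04 to 35.4 ± 6.25 TPM, SD, n = 3) fell. The family had 2 higher and 3 lower without CBPWTp53ΔIEC replicate 1, where 6.06% of all genes were called. Both falls are in families of near-identical copies, so reads may have been split between paralogs.

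The largest rise among called genes was in the retinoid list. Rbp7, a cellular retinol-binding protein, had 1 read in each CBPWTp53-floxed library and 23, 24 and 13 reads in the CBPWTp53ΔIEC libraries. The pooled ratio was 22.3, with a counting interval of 7.26 to 111, and the log2 fold change of 4.34 ± 0.65 (SE) had an adjusted p of 0.0168. Lrat, which stores retinol as esters, fell from 10.5, 10.0 and 9.35 TPM to 4.52, 6.37 and 5.91 TPM (−0.80), and the carotenoid oxygenase Bco2 fell by 0.65 on the log2 scale. These were the 3 calls among 19 retinoid genes tested, against 3.15% of all genes called, with 2 higher and 3 lower without CBPWTp53ΔIEC replicate 1, against 6.06%. Sphk1, a sphingosine kinase, had 1, 0 and 1 reads in CBPWTp53-floxed and 11, 9 and 5 reads in CBPWTp53ΔIEC libraries, a pooled ratio of 13.9 (counting interval 3.47 to 121). It was the only call among 27 sphingolipid genes (3.70%), near the 3.15% of all genes. Sphk1 was not called without replicate 1 (log2 fold change 3.59 with and 3.15 without). DESeq2, which called none of the list, gave it no adjusted p. Cps1, the carbamoyl phosphate synthetase of the urea cycle, rose from 5.13, 3.46 and 3.83 TPM to 32.0, 18.9 and 20.4 TPM (2.62 ± 0.44, adjusted p = 0.0256), with the highest level in replicate 1.

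Differentiation genes of the colon were read by list. Of 26 genes on the colonocyte transport list 1 rose and 2 fell (11.5%), against 3.15% of all genes called. Of these 26, 12 did not overlap between the groups, 9 of them lower, against 30.8% of all genes. The median was −0.17, or −0.28 without CBPWTp53ΔIEC replicate 1. Slc9a3, the apical sodium-proton exchanger NHE3, fell from 170, 193 and 175 TPM to 88.7, 60.4 and 78.9 TPM (log2 fold change −1.17 ± 0.27 (SE), adjusted p = 0.0417). Saa1, on this list although it is an acute-phase protein, was also the only call among 16 antimicrobial genes (6.25%, against 3.15% of all genes). It fell from 732, 747 and 554 TPM to 323, 270 and 239 TPM (−1.22). The magnesium channel Trpm6 rose from 15.8, 13.9 and 15.4 TPM to 21.7, 34.6 and 37.8 TPM (1.07). No gene was called by edgeR among 28 genes of stem cells and the Wnt pathway (6 with an unadjusted p under 0.05, 1 called by DESeq2), 19 of goblet cells (4 and 0), 19 of enteroendocrine cells (1 and 0) and 17 of tuft cells (2 and 0), where 20.9% of all genes had such a p. With CBPWTp53ΔIEC replicate 1 left out, edgeR called 1 gene of the Wnt list and none of the other 3 lists, against 6.06% of all genes. The members with the most reads were Ctnnb1 (573, 556 and 553 TPM against 421, 512 and 541 TPM) in the Wnt list and Chgb (275 ± 15.2 against 238 ± 51.3 TPM, SD, n = 3) in the enteroendocrine list. The mucin Muc2 was at 2817, 3240 and 3215 TPM against 2133, 4198 and 4361 TPM and had a log2 fold change of 0.20 ± 0.19 (SE). Neither 16 apoptosis genes of the BCL2 family (7 with an unadjusted p under 0.05, 1 higher and 1 lower by DESeq2) nor 28 junction genes (5 and 1) had a member called by edgeR. Nor had 20 general epithelial genes (5 and 1) and 12 colonic identity factors (4 and 0).

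The protein synthesis lists were not called either. None of 56 ribosomal protein genes passed edgeR's or DESeq2's test or an unadjusted p under 0.05, with a median log2 fold change of −0.11. The median was −0.33 and 1 was called lower without CBPWTp53ΔIEC replicate 1. Among 35 genes of ribosome biogenesis, 32 had a positive log2 fold change with a median of 0.22, 14 had an unadjusted p under 0.05 (20.9% of all genes), edgeR called none, or 1 without that library, and DESeq2 called 1. Among 39 genes of oxidative phosphorylation 2 had an unadjusted p under 0.05 and neither tool called any. Of 26 genes of endoplasmic reticulum stress and folding, the chaperone Calr (from 392, 378 and 452 TPM to 401, 745 and 768 TPM, log2 fold change 0.65) and Sdf2l1, a component of the chaperone machinery (0.73), rose and none fell, against 2.29% and 0.856% of all genes. Without CBPWTp53ΔIEC replicate 1, 4 were called higher and 1 lower, against 6.06% of all genes called. Calr in replicate 1 was at the floxed level in TPM.

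Immune and stress lists gave few calls. Of 14 leukocyte genes tested edgeR called none, 2 had an unadjusted p under 0.05 and DESeq2 called 1, and of 5 endothelial genes neither tool called any and none had such a p. None was called by edgeR among 35 interferon-response genes (6 with an unadjusted p under 0.05, 1 called by DESeq2), 21 NF-κB genes (3 and 0), 21 immediate early genes (2 and 0) and 18 heat shock genes (4 and 0). Of the heat shock genes 2 were called higher and 1 lower without CBPWTp53ΔIEC replicate 1, against 6.06% of all genes called in that fit. The 11 antigen presentation genes had a median of 1.39, which became −0.20 without CBPWTp53ΔIEC replicate 1, and none was called by either tool. In the same way 17 Paneth genes had a median of 9.96 with that library and 1.19 without it. edgeR called none of them and 6 had an unadjusted p under 0.05. DESeq2 called 15 higher and 1 lower, against 603 and 255 of 14509 genes. For 21 small-intestinal genes the median was 1.66 with and −0.31 without that library, none was called by edgeR, 3 had an unadjusted p under 0.05 and DESeq2 called 3. Nupr1, a stress-response factor on the Paneth list, was at 629, 621 and 540 TPM against 390, 295 and 256 TPM, and was called by edgeR when replicate 1 was left out but not with it (log2 fold change −0.84 with and −1.20 without).

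A few genes of signalling and matrix pathways were called, where 3.15% of all genes were called, or 6.06% without CBPWTp53ΔIEC replicate 1. Nrarp, a feedback inhibitor of Notch, rose from 20.6, 17.3 and 21.2 TPM to 27.5, 32.5 and 40.1 TPM (log2 fold change 0.79), the only call among 17 Notch genes. Btc, the EGF receptor ligand betacellulin, fell from 5.42 ± 0.366 to 3.36 ± 0.553 TPM (SD, n = 3), the only call among 24 genes of EGF receptor signalling, which gave 4 higher and 3 lower without CBPWTp53ΔIEC replicate 1. Lama3, a laminin chain of the epithelial basement membrane, fell from 9.70, 10.9 and 10.0 TPM to 5.46, 4.13 and 4.47 TPM (−1.06 ± 0.23, adjusted p = 0.0342), and the chondroitin sulfotransferase Chst11 rose by 0.74. These were the 2 calls among 15 genes of versican and laminin matrix, with 4 higher and 2 lower without that library. Pdgfrb, a receptor of pericytes and fibroblasts, fell from 5.66, 4.99 and 5.96 TPM to 1.81, 2.84 and 3.81 TPM (−0.97) and was the only call among 6 stromal genes tested. The receptor Kit, which marks mast cells and also secretory cells of the colonic crypt base, had an adjusted p of 0.0365 but a log2 fold change of −0.42, short of the cutoff.

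Abundant genes were called as well. Among the 10 called genes of highest mean CPM, those not yet named were Gsdmc4, a gasdermin of the colonic epithelium (from 546, 463 and 596 TPM to 655, 1159 and 1177 TPM), the tubulin Tubb4b (from 452 ± 29.3 to 798 ± 159 TPM), the actin-severing cofilin Cfl1 (from 423 ± 13.9 to 628 ± 74.3 TPM) and Papss2, which makes the sulfate donor for mucins (from 362 ± 18.2 to 547 ± 84.5 TPM, SD, n = 3). Papss2 was not called without CBPWTp53ΔIEC replicate 1 (log2 fold change 0.63 with and 0.52 without). The falls were Tfcp2l1, a transcription factor of epithelia (from 186, 201 and 197 TPM to 102, 110 and 115 TPM), Hsd11b2, which inactivates glucocorticoids (from 565, 548 and 683 TPM to 316, 423 and 451 TPM), and Elapor1, a protein of the secretory and lysosomal system (log2 fold change −0.55). For all 7 the groups were apart in TPM.

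Genes near the loci engineered in the series were listed, although Crebbp was unmutated in both groups compared here. Within 20 Mb of Trp53, 9 of 492 genes tested (1.83%) were called, 6 higher and 3 lower, a share below the 3.15% of all genes. Sat2, a thialysine acetyltransferase 0.0302 Mb from Trp53, rose from 3.52, 5.04 and 5.78 TPM to 9.89, 10.4 and 10.7 TPM (log2 fold change 1.14). The others were Aurkb, Spag5 (2.06), Rpa1 (0.77), Scpep1 (0.57), Cdc42se2 (0.50), Natd1 (−0.52), Rab11fip4 (−0.52) and Trp53 itself. Cdc42se2 and Natd1 fell short of the fold cutoff without CBPWTp53ΔIEC replicate 1, at 0.45 and −0.49. Within 20 Mb of Crebbp, 8 of 191 (4.19%) were called, 5 higher (Cdc45, Ranbp1, Mcm4, Sdf2l1 and Rfc4) and 3 lower (Bcl6, Klhl24 and Or2l13). Cdc45, Mcm4 and Rfc4 belong to DNA replication. The part of linked sequence in these calls was not tested.

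The same deletion was measured in CBPAA mice in 6 libraries that the comparison above does not share, among them CBPAAp53-floxed replicate 1 with almost no Xist. There 4 genes were called (0.0274%), Trp53, Eda2r, Ephx1 and Gm10736, all lower. Without CBPAAp53ΔIEC replicate 3, whose mitosis list was near the floxed level, the count was 326. The log2 fold changes of Trp53 (−2.64 in CBPWT and −2.58 in CBPAA), Eda2r (−5.67 and −4.61) and Ephx1 (−1.79 and −1.93) lay side by side. Of the 460 genes called in CBPWT, 420 (91.3%) had the same sign in CBPAA, against 57.5% of all genes tested, and 222 had it with an unadjusted p under 0.05 there, against 1371 of all 14610. The changes were smaller in CBPAA for 457 of the 460 and for 11021 of all 14610, with a median log2 change of 1.05 in CBPWT and of 0.43 in CBPAA, both counted in the direction seen in CBPWT. The genes were chosen on the CBPWT libraries, which by itself favours larger values in CBPWT. The mitosis list had medians of 1.87 and 1.41, the replication list 1.13 and 0.55, the p53 target list −0.16 and −0.22, the clock list −0.59 and −0.61, and the NRF2 list 0.26 and 0.00.

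A test of the difference between the 2 deletion effects called 1 gene of 14610 (0.00684%), the processed pseudogene Gm10736, and none with the replicate block or without any 1 of the CBPWTp53-floxed libraries. Among the 460 genes, 182 had an unadjusted p under 0.05 for the difference, as did 1502 of all genes tested. Rbp7 had log2 fold changes of 4.34 in CBPWT and 2.81 in CBPAA, and Cyp4f15 of 4.30 and 1.24 (difference 3.06 ± 0.74 (SE), adjusted p = 0.482). Neither gene was called in CBPAA (edgeR adjusted p = 0.32 for Rbp7 and 0.338 for Cyp4f15). Lrat had −0.80 and 0.30, with the difference of −1.10 ± 0.21 (SE) at an adjusted p of 0.388. At 3 mice per group these differences did not pass the test over all genes.

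**Figure D5:**
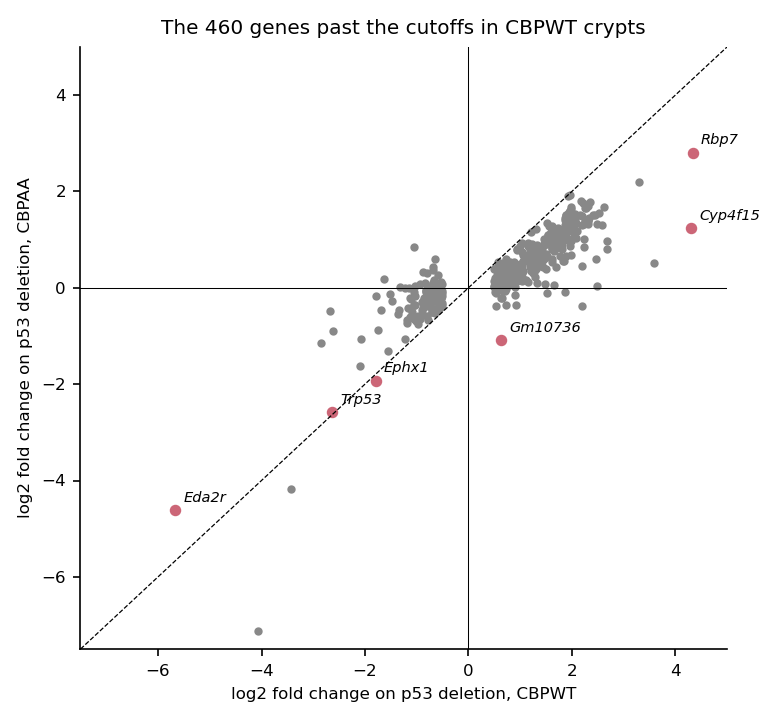
Log2 fold change on p53 deletion in CBPAA crypts against that in CBPWT crypts for the 460 genes called in CBPWT, with the line of equal values dashed. Trp53 and Ephx1 lie near the line, most risen genes lie below it but above 0, and Gm10736 is higher in CBPWT and lower in CBPAA.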

How the data were processed

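Colonic crypts were isolated with EDTA, and poly(A) RNA of 12 mice was sequenced (TruSeq Stranded mRNA kit). Per the labels, fastp 0.20.0, FastQC 0.11.9, HISAT2 2.1.0, SAMtools 1.9 and Subread 2.0.1 were used with GRCm38. Use of strand in counting is not given in the sources used here, so genes that overlap another gene are uncertain. The authors deposited raw read counts per gene and TPM. Their own fold changes and p-values were not used. edgeR 4.0.16 (R 4.3.3) was run on the counts, with genes kept by filterByExpr at a count minimum of 10, TMM scaling and robust quasi-likelihood fits of 4 groups. Adjustment was by Benjamini-Hochberg. A call needed an adjusted p below 0.05 plus a log2 change beyond 0.5. Standard errors were derived from the F statistic. An exact permutation test of 3 against 3 mice cannot go below 0.1, and none was run.

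Alternatives were DESeq2 1.42.0, its size factors, other filters, the 2 groups alone, the replicate block and each library left out. Members and lists were chosen with earlier results of these data known. Genes were named by a rule: Trp53 and Crebbp, the 12 largest rises and falls among called genes, the 10 most abundant called genes, the list members of smallest p (the most abundant where none was called), called genes near Trp53 or Crebbp, and markers of other cell types. Bax, Cd74, Cdc20, Cdkn1a, Dbp, Defa24, Fabp6, Gm10736, Hoxb13, Kif11, Mcm5, Mdm2, Mki67, Pcna, Plk1, Prdx1, Scd1, Sqle, Tk1 and Ube2c were added after their values were seen. Some genes that the rule names are not reported here. Gene positions came from GENCODE M21 and promoters from RefSeq. Figures were drawn with matplotlib 3.10.9.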

Additional observations from a re-analysis of the deposited data

Results flagged for a closer look

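Gm10736, a processed pseudogene of 78 bases on chromosome 13, was the 1 gene whose response to p53 deletion differed between CBPWT and CBPAA crypts by the test of the difference over all genes (log2 difference 1.71 ± 0.21 (SE), adjusted p = 0.0222, edgeR). With the replicate block no gene was called for this difference (smallest adjusted p = 0.176). None was called either without any 1 of the CBPWTp53-floxed or CBPAAp53ΔIEC libraries, CBPAAp53-floxed replicate 2 or 3, or CBPWTp53ΔIEC replicate 3, where the smallest adjusted p over all genes lay between 0.0588 and 0.154, whereas DESeq2 called 30 genes. The rise of Gm10736 in CBPWT crypts (log2 fold change 0.62, adjusted p = 0.0391) was not called without CBPWTp53ΔIEC replicate 1 (0.54, adjusted p = 0.0583). It was at 354, 374 and 361 TPM in CBPWTp53-floxed, 504, 501 and 633 TPM in CBPWTp53ΔIEC, 616, 674 and 741 TPM in CBPAAp53-floxed and 357, 375 and 329 TPM in CBPAAp53ΔIEC crypts. The CBPWTp53-floxed and CBPAAp53ΔIEC mice thus shared the low level and the other 2 groups the high one. A pseudogene can take reads from its parent gene, so its own transcription is uncertain.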

How the results depend on the processing

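The count of 460 called genes became 858 by DESeq2 on all 12 samples, 723 and 977 by edgeR and DESeq2 on the 2 groups alone, and stayed between 415 and 544 under other size factors, filters or no fold cutoff. With no filter on low counts 59.3% of the called genes were higher, against 72.8%. Leaving out 1 library gave between 1 and 906 genes. Without CBPWTp53-floxed replicate 1, 2 or 3 it was 7, 2 or 1, without CBPWTp53ΔIEC replicate 2 or 3 it was 7 or 4, and without CBPAAp53-floxed replicate 3 or CBPAAp53ΔIEC replicate 3 it was 253 or 735. Each fit without 1 library of the 2 groups leaves an arm of 2, with fewer mice to test on. The fit of this kind without CBPWTp53ΔIEC replicate 1 gave 906 genes. The part of arm size in these counts was not tested. For deletion in CBPAA crypts the 4 calls became 73 by DESeq2, 11 with no filter and 1 to 326 without 1 library. For the difference between both deletions, the 1 call became 30 by DESeq2, 2 with no filter and 0 to 1 without 1 library. With the replicate block, the calls were 32 in CBPWT, 2 in CBPAA and 0 for the difference. The block gave 0 called genes in the mitosis list (26 without it), 5 in the replication list (29), 0 in the repair list (12) and 2 in the p53 target list (8). The labels do not say that the numbers pair mice: deviations of same-numbered libraries correlated at 0.057, 0.054 and 0.050, and each library correlated best with its own number. Among the single genes whose sign changed without 1 library were Cdkn1a (−0.27 to 0.16), Cd74 (−1.03 to 3.79), Apoa1 (−1.35 to 9.27), Reg3b (−0.46 to 3.01), Hoxb13 (−0.41 to 0.0050) and Xist (−0.34 to 0.11), none of them called. The causes were not tested. The depth per library leaves genes with few reads, such as Eda2r and Rbp7, with wide counting intervals.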
